A study of Mus musculus with 6 samples.

Results

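The genes described here are the aminoacyl-tRNA synthetases together with ATF4, its related stress factors and a set of its target genes, in germinal centre B cells of mouse spleen. The synthetases were all listed genes whose symbol is a capital letter followed by ars or ars2, with Eprs, Farsa and Farsb added. This gave 37 synthetases, of which 20 serve the cytosol and 17, with symbols ending in 2, serve the mitochondrion. Gars and Kars, counted with the cytosolic enzymes, serve both. The other 15 genes were Atf4, Atf5, Ddit3, Asns, Psat1, Phgdh, Psph, Shmt2, Mthfd2, Chac1, Trib3, Sesn2, Slc7a11, Slc3a2 and Slc7a5. The set thus held 52 of the 23420 genes listed. The rule goes by gene symbol and uses no measured value, though the set was proposed with earlier results of these data known.

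Polyadenylated RNA was profiled in 3 KO and 3 WT libraries, numbered 1 to 3 in each group. KO cells came from BASP1 fl/fl hCD20TamCre+/- mice and WT cells from BASP1 +/+ hCD20TamCre+/- mice, so both groups carried the tamoxifen-activated Cre recombinase of B cells. All mice were immunized with NP-KLH, a hapten on a carrier protein, and received 1 mg tamoxifen on day 5, day 7 and day 9, and the cells were taken on day 10. Splenic B cells were enriched on beads and germinal centre B cells were then sorted. The age of the mice and the number behind each library are not given in the sources used here, so p-values measure only the spread between these libraries, which may be technical. Basp1, the targeted gene, had 3.27, 2.86 and 3.23 log2 CPM in KO libraries, against 5.49, 5.90 and 5.52 in WT libraries, so the labels held for each library and some signal remained in KO. The difference was -2.51 ± 0.45 (SD over 3 pairs; limma adjusted p = 3.3e-16).

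Aminoacyl-tRNA synthetases join each amino acid to its transfer RNA and so feed the ribosome. When amino acids run short or proteins misfold, a small family of kinases phosphorylates the initiation factor eIF2 alpha. General translation then slows, while translation of the transcription factor ATF4 goes up. ATF4, with partners of the C/EBP family, switches on genes of amino acid uptake, serine and asparagine synthesis, one-carbon metabolism and many cytosolic synthetases. Because ATF4 is set largely at translation, the level of its own mRNA does not give the amount of protein. Germinal centre B cells grow and divide fast and draw heavily on these pathways.

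ATF4 and its C/EBP partners bind a composite element whose core was searched here as TGATGNAA on both strands. The windows were RefSeq promoters of GRCm38.p6, from 250 bases before to 50 after each start. Of the 52 genes, 40 had a window, and 9 of the 40 held the core, against 4.51% of all 27025 genes with a window. The 9 were 5 of 12 cytosolic synthetases, 0 of 14 mitochondrial synthetases and 4 of 14 genes of the ATF4 set. The genes without a window included Cars, Hars, Lars, Mars, Nars, Rars, Vars, Wars, Hars2, Pars2 and Slc7a5. A match is a run of letters, not a shown binding site. The 30 bases around the match are shown for 8 of the 9, because these are members with the sequence through which ATF4 is known to act; each reads 5′ to 3′ on the strand of its gene, with the core in capitals.
Gars: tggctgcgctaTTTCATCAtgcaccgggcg
Iars: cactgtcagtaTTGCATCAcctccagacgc
Tars: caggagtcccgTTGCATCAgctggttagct
Yars: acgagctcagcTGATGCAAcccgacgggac
Asns: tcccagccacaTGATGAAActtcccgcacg
Chac1: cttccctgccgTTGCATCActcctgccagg
Trib3: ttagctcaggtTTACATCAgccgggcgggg
Slc7a11: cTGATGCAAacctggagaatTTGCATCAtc

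The core lay 193 bases before the start in Chac1 (chr2:119351038-119351067, plus strand), 30 in Gars (chr6:55037960-55037989, plus), 23 in Asns (chr6:7693214-7693243, minus) and 15 in Tars (chr15:11399655-11399684, minus). Slc7a11 held it in both orientations, the outer copy 66 bases before the start (chr3:50443651-50443680, minus). In Iars (chr13:49682126-49682155, plus), Trib3 (chr2:152344028-152344057, minus) and Yars (chr4:129189895-129189924, plus) it began within the transcript, at bases 8, 15 and 4. The capitals in Asns match the nutrient-sensing response element described for the human gene.

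The deposited values were log2 CPM, where CPM is a transcript's count scaled to a fixed library total. Depth per library is unknown, since the values had already been scaled to a common distribution. For every gene the KO and WT values with the same replicate number had the same sum to within 0.001. A KO library that lay high for a gene was therefore mirrored by a low WT library of that number, and each gene carried a mean and 3 paired differences. Among the markers listed for germinal centre B cells, Cd79a and S1pr2 were abundant in all libraries, and the lowest value of S1pr2 was 531.9 CPM, in WT 3. The 12 markers of germinal centre B cells summed to between 11690 and 11940 CPM in KO and between 12230 and 12510 CPM in WT. Of the T cell markers, Cd3e had 0.0299 CPM in all libraries, the value at which 8492 genes were constant, and Lck was the only abundant one; the list of 7 summed to between 220.5 and 235.7 CPM in KO and between 188.8 and 201.7 CPM in WT. The 6 myeloid markers listed summed to between 1.85 and 2.89 CPM in KO and between 2.99 and 4.69 CPM in WT. In bulk RNA, fewer cells of a type and less RNA per cell cannot be told apart.

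Transcripts of the cytosolic synthetases were abundant in both groups, and those of the mitochondrial synthetases mostly scarcer. The median level over the 6 libraries was 187 CPM for the 20 cytosolic members and 35.8 CPM for the 17 mitochondrial members. Per kb of the longest transcript, Vars and Dars stood highest among the cytosolic members, at 215 and 201 CPM per kb, and Cars lowest at 24.7. Among the mitochondrial members the level per kb ran down to 0.867 for Mars2 and 1.22 for Wars2. The Mars2 value rests on a longest annotated transcript of 11294 bases, and in CPM Mars2, at 9.79, stood above Wars2, at 5.4. At the upper end Rars2 reached 35.4 CPM per kb. Lars2, the mitochondrial leucyl-tRNA synthetase (chromosome 9, 123366927 to 123462666, GRCm38), was the exception at 276 CPM per kb, above its cytosolic counterpart Lars at 35.0. A stretch of 72 bases in the last part of the Lars2 transcript matched another annotated transcript, Gm15564, at 98.6% identity, and the share of reads that it received was not tested. Lars2 had 10.08, 10.10 and 10.00 log2 CPM in KO libraries and 10.06, 10.04 and 10.14 in WT libraries, so the groups overlapped and the high level was common to all 6.

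**Figure D1:**
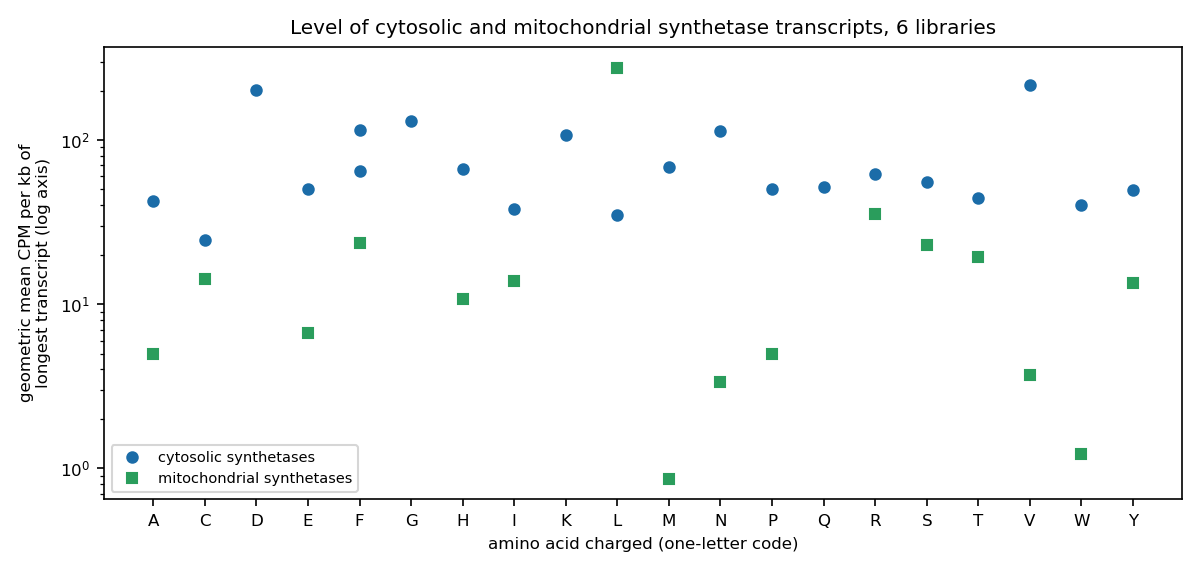
Level of each synthetase transcript as geometric mean CPM over the 6 libraries per kb of its longest annotated transcript (log axis), by the amino acid it charges, with circles for cytosolic and squares for mitochondrial members. Eprs is drawn under both E and P, and 1 mitochondrial member is not shown. The mitochondrial square lies below the cytosolic circle for every amino acid drawn with both except leucine, where Lars2 stands at 276.

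The comparison of KO with WT asked whether these genes differed in germinal centre B cells of mice with floxed Basp1. None of the 50 members tested passed a false discovery rate (FDR) of 5% (limma with the replicate number as a block, Benjamini-Hochberg adjustment over all tested genes), against 0.266% of the 10133 genes tested. At an unadjusted p under 0.05 there were 2 members, Cars and Slc7a5, both lower in KO, against 8.82% of all tested genes. Atf5 and Slc7a11 fell below the minimum mean of 1 CPM and were not tested. The mean KO minus WT difference of every synthetase lay between -0.18 and 0.20 on the log2 scale, and the 95% intervals of all 37 lay between -0.35 and 0.48. No synthetase differed by more than 0.25, while 12.2% of all tested genes did. That share is not matched for level: the median was 119 CPM for synthetases and 33.5 CPM for all tested genes. Spread between pairs was smaller at high levels, with a median SD of 0.314 among genes near the level of Chac1 and 0.104 near that of Eprs. A small difference can be missed here. Data were simulated with equal pair sums and independent normal noise whose spread was set by level alone. In them the test called 73.2% of genes given a log2 change of 0.5 and 17.6% of those given 0.25. Differences in spread between genes of like level and the relation to transcript length were left out. On average 147 genes were called per simulated run, against 27 in the data, which makes the adjusted cutoff looser. For both reasons these shares may be too high, and they pool genes of all levels.

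**Figure D2:**
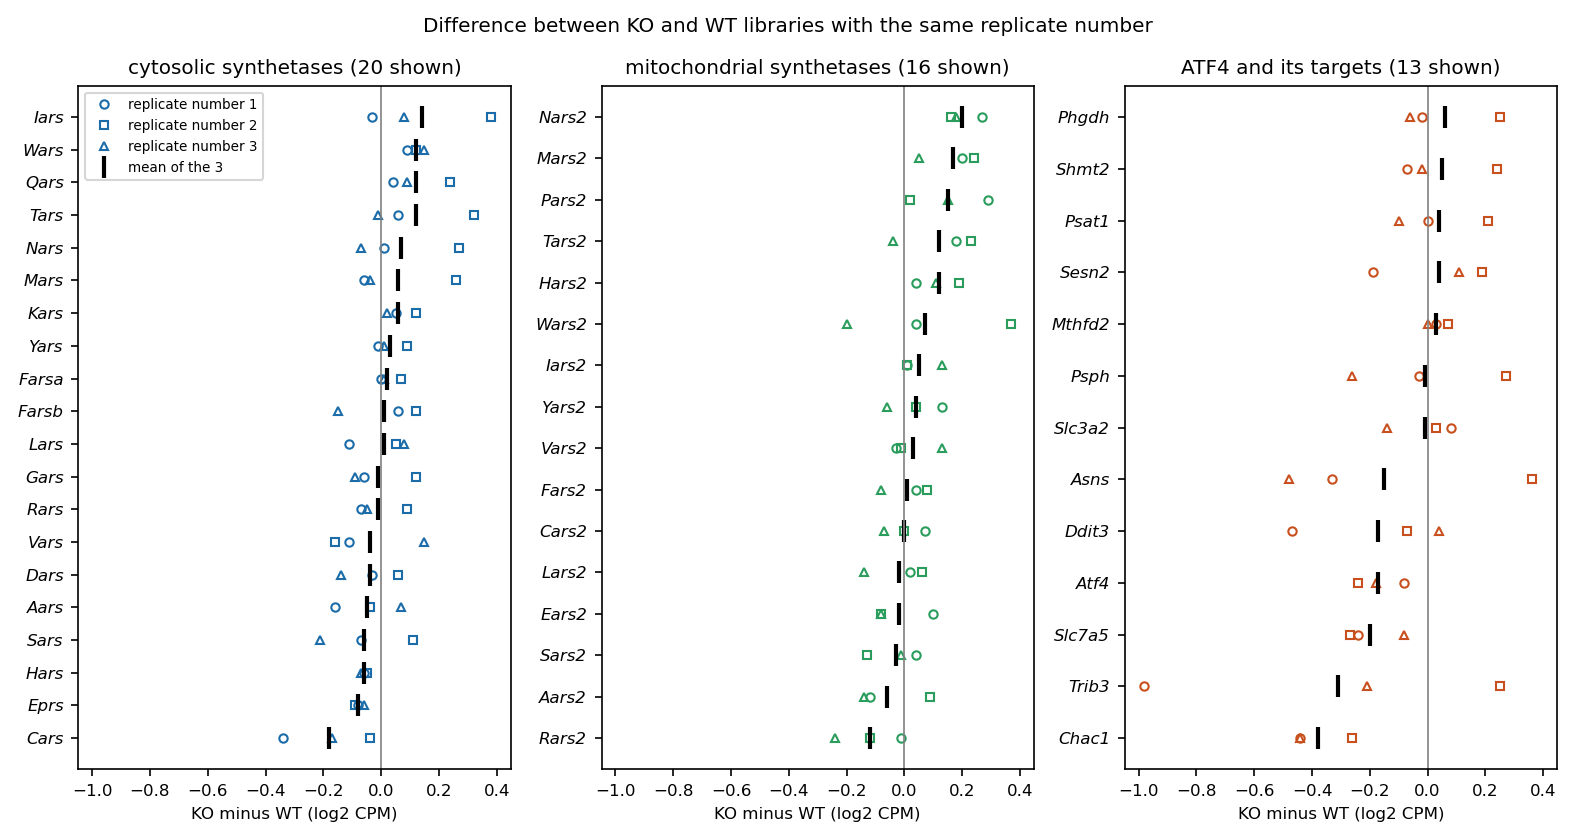
KO minus WT difference in log2 CPM for the tested members, 1 of them not shown, with a circle, a square and a triangle for replicate numbers 1, 2 and 3 and a black bar for their mean. Synthetase means lie between -0.18 and 0.20, and the squares of Iars, Tars, Nars, Asns, Psph and Phgdh stand apart to the right of their circles and triangles.

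In 8 members all KO libraries lay above all WT libraries and in 7 all lay below, against 15.2% and 12.5% of all tested genes. The 15 together compare with 27.7% of all tested genes whose groups did not overlap. With equal pair sums this happens whenever the 3 paired differences share a sign. The 8 above were Kars, Qars, Wars, Hars2, Iars2, Mars2, Nars2 and Pars2, all synthetases. The 7 below were Cars, Eprs, Hars, Rars2, Atf4, Chac1 and Slc7a5.

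The cytosolic synthetases had a median difference of 0.008, with 11 of 20 above 0, against a median of 0.004 and 51.3% above 0 for all tested genes. Cars, the cysteinyl-tRNA synthetase (chromosome 7, 143557230 to 143600090), had the lowest difference. Its values were 6.14, 6.29 and 6.23 log2 CPM in KO libraries, against 6.48, 6.33 and 6.40 in WT libraries. The groups did not overlap, but KO 2 and WT 2 nearly met, and the difference of -0.18 ± 0.15 (SD, n = 3 pairs) did not pass (limma adjusted p = 0.492).

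Iars, the isoleucyl-tRNA synthetase (chromosome 13, 49682100 to 49734267), had the highest difference among cytosolic members. It had 7.39, 7.59 and 7.44 log2 CPM in KO libraries, against 7.42, 7.21 and 7.36 in WT libraries. The difference of 0.14 ± 0.21 (limma adjusted p = 0.629) came mainly from replicate number 2, and the groups overlapped. Tars, for threonine, behaved alike, with paired differences of 0.06, 0.32 and -0.01, and Qars, for glutamine, had 0.04, 0.24 and 0.09.

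Wars, the tryptophanyl-tRNA synthetase, is known to be induced by interferon gamma (chromosome 12, 108860030 to 108894174). It had 6.87, 6.88 and 6.90 log2 CPM in KO libraries, against 6.78, 6.76 and 6.75 in WT libraries. KO lay above WT by a small and even margin, 0.12 ± 0.03, which did not pass (limma adjusted p = 0.751). Eprs, the fused synthetase for glutamate and proline, lay as evenly on the other side. Its values were 7.90, 7.90 and 7.92 log2 CPM in KO libraries and 7.99, 7.99 and 7.97 in WT libraries, a difference of -0.08 ± 0.02 (limma adjusted p = 0.837). Hars, for histidine, differed by -0.06 ± 0.01, and 99.6% of the tested genes within 0.5 log2 CPM of its level had a larger spread between pairs.

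Subgroups of the cytosolic synthetases were as flat. The 8 synthetases of the multisynthetase complex, a particle that holds several of these enzymes on a scaffold, had a median difference of 0.031 with 5 of 8 above 0. The 13 synthetases widely listed as ATF4-induced had a median of 0.006 and the other 7 a median of 0.010. Class I and class II enzymes, which differ in the fold of the catalytic domain, had medians of 0.029 over 9 genes and 0.001 over 10 genes. The scaffold proteins Aimp1 and Aimp2 differed by -0.02 ± 0.10 and 0.03 ± 0.18. They belong to a list of 14 partners of synthetases, of which 13 were tested and 0 passed, with 4 above 0.

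The mitochondrial synthetases charge transfer RNAs for the proteins made inside the organelle. Their median difference was 0.036, with 11 of 17 above 0. Nars2, for asparagine (chromosome 7, 96951505 to 97064758), had the highest difference of all synthetases. It had 3.79, 3.74 and 3.74 log2 CPM in KO libraries, against 3.52, 3.58 and 3.57 in WT libraries. The groups were well apart in a transcript of low level, and the difference of 0.20 ± 0.06 did not pass (limma adjusted p = 0.763). Mars2, for methionine, and Pars2, for proline, lay at 0.17 ± 0.10 and 0.15 ± 0.14, also with every KO library above every WT library. Rars2, for arginine, had the lowest difference, -0.12 ± 0.12, followed by Aars2, for alanine, at -0.06 ± 0.13 and Sars2, for serine, at -0.03 ± 0.09. The 76 mitochondrial ribosomal protein genes, which serve the same translation system, had a median of 0.024, and the 80 tested cytosolic ribosomal protein genes one of 0.144. The difference between these lists and the synthetases was not tested.

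Atf4 mRNA itself was slightly lower in every KO library (chromosome 15, 80255184 to 80257541). It had 5.86, 5.78 and 5.82 log2 CPM in KO libraries, against 5.95, 6.03 and 6.00 in WT libraries. The groups did not overlap, and the difference of -0.17 ± 0.08 did not pass (limma adjusted p = 0.595; unadjusted p = 0.0587). Ddit3, which encodes the stress factor CHOP, had 2.50, 2.70 and 2.76 log2 CPM in KO libraries, against 2.97, 2.77 and 2.72 in WT libraries. The groups overlapped, and its difference of -0.17 ± 0.27 (limma adjusted p = 0.868) rested on replicate number 1. Atf5, a related factor that is translated in a like way, was near 0.5 CPM in both groups, with 0.533 CPM in KO and 0.495 CPM in WT. With no filter on low values it differed by 0.11 (limma adjusted p = 0.972).

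Chac1, an enzyme that degrades glutathione and a sharp reporter of ATF4 activity, had the lowest difference of all members (chromosome 2, 119351229 to 119354381). It had 1.70, 1.78 and 1.69 log2 CPM in KO libraries, against 2.14, 2.05 and 2.14 in WT libraries. All KO libraries lay below all WT libraries at a low level, 3.31 CPM in KO and 4.31 CPM in WT. The difference was -0.38 ± 0.10, with a 95% interval from -0.82 to 0.06, and did not pass (limma adjusted p = 0.673). Trib3, a pseudokinase that restrains ATF4 and AKT, differed by -0.31 ± 0.62 (limma adjusted p = 0.702). Its values were 2.28, 2.90 and 2.67 log2 CPM in KO libraries, against 3.27, 2.65 and 2.88 in WT libraries, so the groups overlapped and the spread was wide. Without replicate number 1 the Trib3 difference was 0.02, on the other side of 0. Sesn2, a leucine sensor that restrains mTORC1, differed by 0.04 ± 0.20 (limma adjusted p = 0.975).

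**Figure D3:**
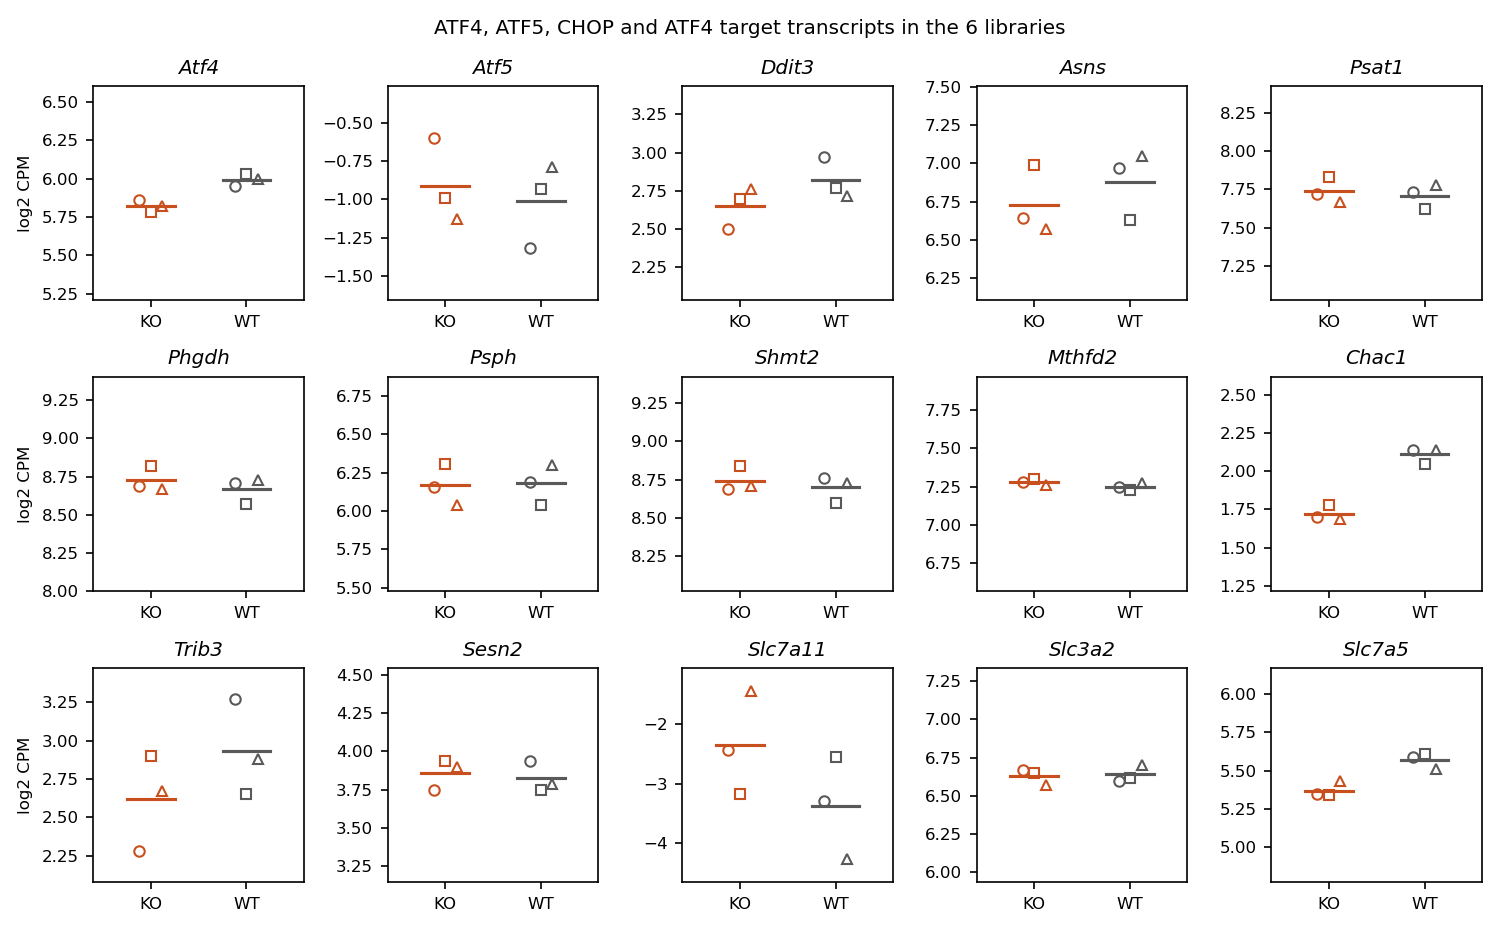
Values in log2 CPM of Atf4, Atf5, Ddit3 and the ATF4 target genes in the 3 KO libraries (orange, left) and the 3 WT libraries (grey, right), with a circle, a square and a triangle for replicate numbers 1, 2 and 3 and a line for each group mean. All panels span the same log2 range except Slc7a11, whose range is wider. The groups are apart in Atf4, Chac1 and Slc7a5 and overlap in the other panels.

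Asns, asparagine synthetase, was the member with the widest spread for its level (chromosome 6, 7675169 to 7693254). It had 6.64, 6.99 and 6.57 log2 CPM in KO libraries, against 6.97, 6.63 and 7.05 in WT libraries. KO lay below WT in replicate numbers 1 and 3 and above it in number 2, with paired differences of -0.33, 0.36 and -0.48. The mean was -0.15 ± 0.45 (limma adjusted p = 0.914). Of the 1367 tested genes within 0.5 log2 CPM of its level, 0.585% had a larger spread between pairs.

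The serine and one-carbon enzymes were abundant and close to equal between the groups. Phgdh, Psat1 and Psph make serine in sequence from a glycolytic intermediate, and Shmt2 and Mthfd2 turn serine into one-carbon units in the mitochondrion. Phgdh had 8.69, 8.82 and 8.67 log2 CPM in KO libraries, against 8.71, 8.57 and 8.73 in WT libraries, and differed by 0.06 ± 0.17 (limma adjusted p = 0.887). The KO library of number 2 was high, which with equal pair sums makes its WT counterpart low, and the groups overlapped. Shmt2 had 8.69, 8.84 and 8.71 log2 CPM in KO libraries, against 8.76, 8.60 and 8.73 in WT libraries. Again the highest value was in KO 2, and so the lowest was in WT 2. Psat1 differed by 0.04 ± 0.16, Psph by -0.01 ± 0.26 and Mthfd2 by 0.03 ± 0.04, the last with nearly equal values throughout. Most of the Phgdh transcript (84.6%) matched the processed pseudogene Gm9347 at 97.4% identity, so its reads may have been split or dropped in counting. In the cytosol, Shmt1 had an unadjusted p of 0.0300 and was higher in KO in all 3 pairs, 0.19 ± 0.12 (limma adjusted p = 0.473). It was 1 of 5 tested among 6 cytosolic folate and serine enzymes, none of which passed.

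Of the amino acid transporters, Slc7a5, the light chain of the large neutral amino acid carrier LAT1 (chromosome 8, 121881150 to 121907694), lay lower in every KO library. It had 5.35, 5.34 and 5.43 log2 CPM in KO libraries, against 5.59, 5.61 and 5.51 in WT libraries. The difference of -0.20 ± 0.10 had an unadjusted p of 0.0403 and did not pass (limma adjusted p = 0.526). Its heavy chain Slc3a2, which Slc7a5 needs to reach the membrane, differed by -0.01 ± 0.11 (limma adjusted p = 0.992). Slc7a11, the cystine carrier and another partner of Slc3a2, was almost absent at 0.196 CPM in KO and 0.0965 CPM in WT, and its paired differences were 0.86, -0.61 and 2.82. With no filter on low values Slc7a11 had an adjusted p of 0.811.

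In the ATF4 set and the cytosolic synthetases replicate number 2 differed from the other numbers, as a description with no test. Over all members in number 2, 37 of 50 tested members were higher in KO, against 21 in number 1 and 18 in number 3. Over all tested genes the share higher in KO was 52.1% in number 2, 50.3% in number 1 and 50.7% in number 3. Shifts by number were also seen in other lists, though not with number 2 highest. Of the mitochondrial ribosomal protein genes 62, 47 and 11 of 76 were higher in KO in numbers 1, 2 and 3. For the partners of synthetases these counts were 12, 5 and 4 of 13. The cytosolic ribosomal protein genes were steady, with 77, 75 and 76 of 80. A shift by number was thus not particular to the members, and its source was not tested. The median difference of the ATF4 set was -0.083, 0.194 and -0.105 in numbers 1, 2 and 3, that of the cytosolic synthetases -0.043, 0.098 and -0.025, and that of the mitochondrial synthetases 0.043, 0.058 and -0.039. The number of cytosolic synthetases higher in KO was 6, 15 and 9 of 20 in numbers 1, 2 and 3, and that of the ATF4 set 2, 9 and 2 of 13. Among the mitochondrial synthetases numbers 1 and 2 were alike and number 3 lay apart, with 13, 13 and 7 of 17 higher in KO. All 5 serine and one-carbon enzymes were higher in KO in number 2, 1 was in number 1 and 0 were in number 3. Their summed level was 1263, 1376 and 1249 CPM in KO 1, 2 and 3, against 1287, 1182 and 1303 CPM in WT 1, 2 and 3. Atf4 did not share this pattern, with paired differences of -0.08, -0.24 and -0.18.

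Without replicate number 2 the median of the ATF4 set was -0.131, with 1 of 13 tested genes above 0, and that of the cytosolic synthetases -0.038, with 7 of 20 above 0; no member passed. Without numbers 1 and 3 in turn the median of the ATF4 set was 0.005 and 0.012. Malat1, an RNA kept in the nucleus, also differed most in number 2. The RNA quality list of 4 genes, of which Malat1 made up most and Meg3 was constant at 0.0299 CPM, summed to 354.9, 264.0 and 464.2 CPM in KO 1, 2 and 3, against 464.4, 624.3 and 355.3 CPM in WT 1, 2 and 3. The 5 naive B cell markers listed summed to 509.1, 561.8 and 502.2 CPM in KO, against 513.4, 469.0 and 524.0 CPM in WT. The naive B cell difference in number 2 came mostly from the most abundant marker of that list, and the next most abundant differed the other way. The part of either list in the pattern was not tested.

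**Figure D4:**
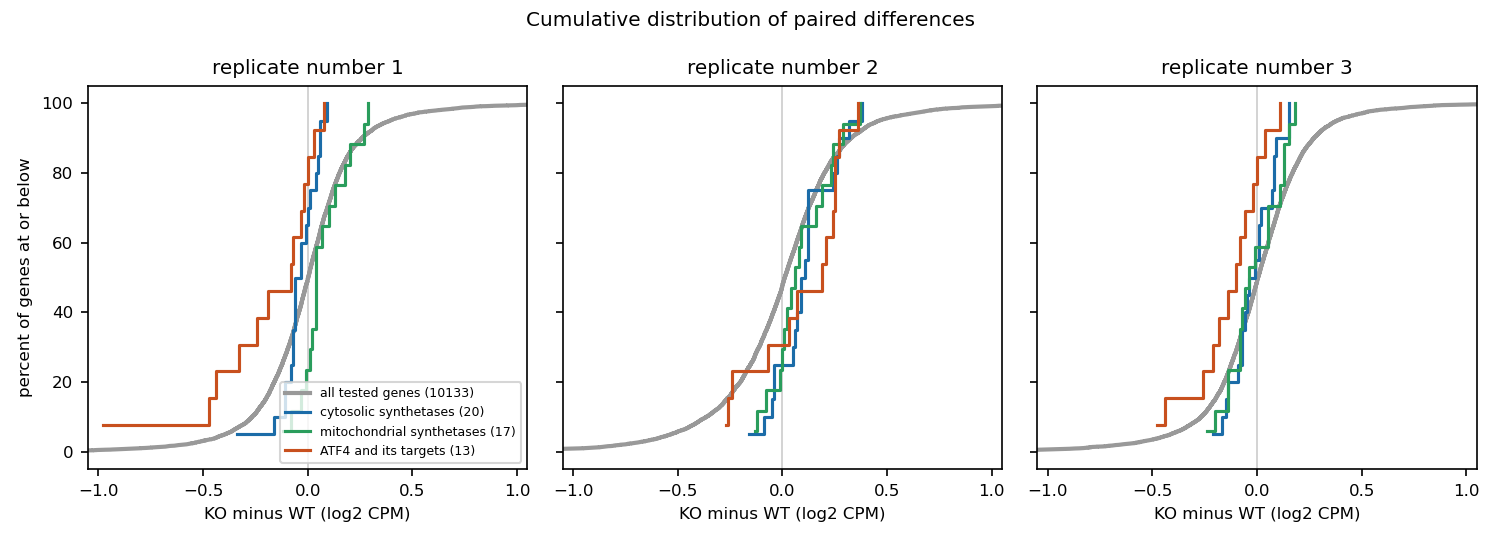
Cumulative share of genes, in percent, at or below each KO minus WT difference in log2 CPM, in a panel for each replicate number, for all 10133 tested genes (thick grey) and the 3 sets of members. The curve of the ATF4 set has its median at -0.083 and -0.105 in numbers 1 and 3, left of that of all genes, and at 0.194 in number 2, right of it.

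The members with the ATF4 core in their promoter window included genes on both sides of 0. Of the 8 tested, 3 were above 0, with a median of -0.03 and a range from -0.38 for Chac1 to 0.14 for Iars. The 30 tested members with a window and no core had a median of 0.015, with 17 above 0. Iars, Tars and Yars, which carry it at or near the start, differed by 0.14, 0.12 and 0.03. Trib3, Asns and Gars, which also carry it near the start, differed by -0.31, -0.15 and -0.01, and Aars by -0.05.

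Upstream of ATF4, the kinases of eIF2 alpha were examined as 4 of a list of 9 genes, of which 0 passed 5% FDR and 3, all of them kinases, had an unadjusted p under 0.05, against 0.266% and 8.82% of all tested genes. Eif2ak4 encodes GCN2, the kinase that senses uncharged transfer RNA. It had 5.17, 5.07 and 5.27 log2 CPM in KO libraries, against 5.44, 5.54 and 5.34 in WT libraries. All KO libraries lay below all WT libraries, by -0.27 ± 0.20 (limma adjusted p = 0.304). Eif2ak3, or PERK, the kinase of the endoplasmic reticulum, differed by -0.21 ± 0.24 (limma adjusted p = 0.326), and Eif2ak2, or PKR, the kinase activated by double-stranded RNA, by -0.33 ± 0.44 (limma adjusted p = 0.457). Both had their lowest paired difference in number 2 and one just above 0 in number 3. Eif2ak1, or HRI, the haem-regulated kinase, differed by 0.04 ± 0.07.

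Of 25 other partners and targets of ATF4, 16 were tested and 0 passed, or had an unadjusted p under 0.05, with a median of 0.030 and 9 above 0. Among the 9 not tested were Fgf21 and Vldlr, which were constant at -5.06 log2 CPM in all libraries, and Nupr1, Gdf15 and Cebpb.

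**Figure D5:**
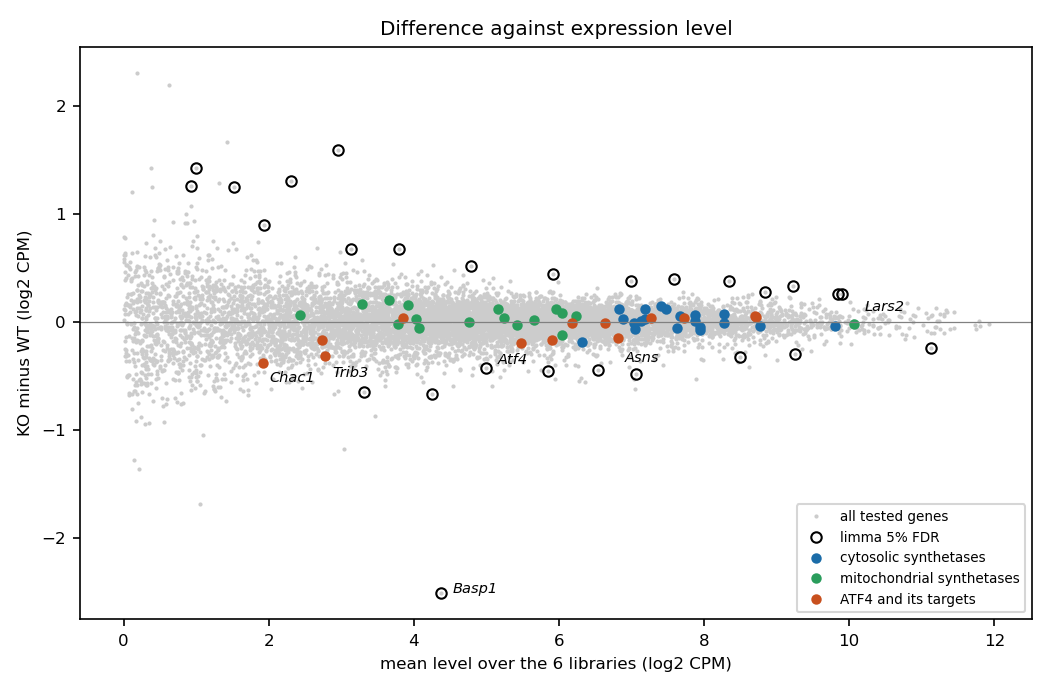
KO minus WT difference against the mean level over the 6 libraries, both in log2 CPM, for all 10133 tested genes (grey points), the genes past 5% FDR by limma (open circles) and the 50 tested members (coloured). No member carries a circle; Chac1 at -0.38 and Trib3 at -0.31 are the lowest, and Basp1 lies at -2.51.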

How the data were processed

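RNA was sequenced from 3 KO and 3 WT libraries of sorted germinal centre B cells. The build mm10 and the tools STAR 2.6.1a, Subread 2.0.1 with featureCounts, limma, Trim Galore 0.6.5 and FastQC 0.11.7 are named in the submitters' processing notes. Whether counting used strand is not stated. Deposited files hold log2 CPM for 23420 genes, as read from the values: 2 to their power summed to between 997617 and 1000513 per library. They have a common distribution and equal pair sums, as if a replicate effect had been removed; read depth is unknown.

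Differences between KO and WT were tested with limma 3.58.1 under R 4.3.3 (genotype and replicate number, variance trend, robust moderation, two-sided, Benjamini-Hochberg). Because the replicate effect was already removed, the block was kept; the correlation of same-numbered libraries is fixed and shows nothing about pairing. Genes with a geometric mean of at least 1 CPM were tested, without those equal in all libraries, which left 10133. Differences are KO minus WT in deposited log2 CPM, mean ± SD over 3 pairs. In simulated data (10133 genes, 200 changed, 5 runs) 3.26% of calls were false with the block and 52.8% without it. Pair sums were made equal in the simulation, so more false calls without the block were built in. The model had 2 residual and a median of 81.2 prior degrees of freedom, so a gene's spread was estimated mostly from other genes. Members, lists and tests were chosen with earlier results of these data known. Members named were those with an unadjusted p under 0.05, the 3 highest and 3 lowest of each set, all of the ATF4 set, and Wars, Lars2 and Eprs. Lengths and positions are from GENCODE M21 (GRCm38). One member's own values, 1 sequence and some marker genes are not reported here. Transcripts were compared by blastn (at least 60 bases, 97% identity). Alternatives were other filters, scaling, moderation, a pseudocount of 1, no block, removal of a length trend, and leaving out each replicate number.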

Additional observations from a re-analysis of the deposited data

How the results depend on the processing

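No member passed 5% FDR under any of the 11 alternatives (limma); an unadjusted p under 0.05 was seen in 13 of 50 members without the replicate block, beside 2361 of 10133 tested genes, and in 1, 3 and 5 members without numbers 1, 2 and 3, beside 882, 400 and 1216 genes. The count of 27 genes called over all tested genes was 95 with no filter on low values, 142 without the replicate block, 12 with non-robust moderation, 0 with no variance trend (640 at an unadjusted p under 0.05), 4 with the trend over transcript length removed, and between 11 and 136 when a replicate number was left out. The cause of these shifts was not tested. The simulation gave more false calls without the block, but its equal pair sums fixed that outcome in advance. KO minus WT and length had a Spearman correlation across genes of -0.277, -0.0863 and 0.264 in numbers 1, 2 and 3. The median of the ATF4 set, -0.008 with 5 of 13 above 0, was -0.131 with 1 of 13 above 0 without number 2, and that of the cytosolic synthetases, 0.008, was -0.038. Changes of sign were counted only over the 27 tested members that were named by rule, not over all 50. With a replicate number left out, 10 of these 27 changed sign, with ranges of Asns -0.41 to 0.01, Lars2 -0.06 to 0.04, Phgdh -0.04 to 0.12, Psat1 -0.05 to 0.11, Psph -0.14 to 0.12, Sars2 -0.07 to 0.02, Sesn2 -0.04 to 0.15, Shmt2 -0.05 to 0.11, Slc3a2 -0.05 to 0.06 and Trib3 -0.60 to 0.02. Psph was also 0.02 with the length trend removed. These are 13 of 296 values over 27 members, none of them called.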

Other observations

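Several members lie across, or share sequence with, a neighbouring gene, which matters where counting did not use strand. The transcripts of Hars and Hars2 overlap on opposite strands by 195 bases, those of Mars and Ddit3 by 67 bases, and Iars2 shares 2034 bases at its 3′ end with Rab3gap2 on the opposite strand. The longest Aars transcript shares 1326 bases with Exosc6 on the same strand. Psph shares its first 452 bases with Cct6a on the opposite strand. The paired differences of Hars were -0.06, -0.05 and -0.07 and those of Hars2 0.04, 0.19 and 0.11. Those of Ddit3 were -0.47, -0.07 and 0.04 and those of Mars -0.06, 0.26 and -0.04.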
